A study of Mus musculus with 45 samples.

Results

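Macrophages that carried major histocompatibility complex class II (MHCII+) were compared with those that did not (MHCII-) in injured skeletal muscle of mice whose regulatory T cells could be removed. The comparison rested on the 5 arrays, of 45 in the series, whose titles name the 24 h DT set, day 7 and the DTR+ genotype: MHCII+ replicates 1 and 5, and MHCII- replicates 1, 2 and 3. Every gene with a single symbol on the array was read, which gave 19752 genes. Both groups came from male C57Bl6 mice of 8 weeks that carried Foxp3.DTR, a receptor for diphtheria toxin (DT) driven by the promoter of Foxp3, the gene that defines regulatory T cells. Both were taken at day 7 after cardiotoxin, a snake venom toxin that kills muscle fibres, had been injected into the muscle. The sort took Ly6g- CD11b+ F4-80+ cells. Since both groups carried the receptor and the same DT label, the comparison is between 2 macrophage subsets of depleted mice and is not a test of depletion. The same comparison was read in 2 other day 7 sets: DTR- mice without the receptor at 24 h (8 weeks, 4 MHCII+ and 3 MHCII- arrays), and DTR+ mice at 8 h (12 weeks, 3 and 3 arrays), whose gate also left out SiglecF+ cells. It was further set beside, with no call, DTR- mice at 8 h (12 weeks, that same gate, 3 and 4 arrays), and beside other days with 2 arrays a group. These were uninjured DTR- mice (day 0, 10 weeks, no DT label, the gate of the 24 h sets), DTR- and DTR+ mice at day 1 after cardiotoxin (8 weeks, 24 h DT) and DTR- mice at day 4 (8 weeks, no DT label), the last 3 sorted as live CD45+ cells without SiglecF+ ones. The labels give neither the moment from which 8 h and 24 h are counted nor the animal behind each sample. The spread that the p-values rest on is therefore that among samples and may be technical.

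Class II molecules are pairs of an alpha and a beta chain that show peptides from taken-up material to CD4 T cells. Their assembly needs the invariant chain (Cd74), which guards the groove, and the DM and DO proteins, which govern the exchange of peptide, and their transcription needs the coactivator CIITA. Muscle that heals after injury holds macrophages that came from blood monocytes and long-lived resident ones, and the class II level is a common way to divide both.

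The class II genes come first because the cells were sorted on their product, so that their values check the titles and are not a finding. A check was needed, as a marker entry in the labels reads MHCII- for both groups. The H2-Aa, H2-Eb1, H2-Ob and H2-Oa genes have a shared arrangement just before their start sites, which is shown as a feature of these letters. The 4 genes were higher in MHCII+ cells, as were H2-Eb2 and H2-DMa, whose windows do not hold the arrangement. The 100 bases before the RefSeq start (build GRCm38.p6, read on the gene's strand, 5′ to 3′) are given, with capitals marking GCAAC, the core of the X box, and GATTGG, the core of the Y box, or the reverse complement of either.
H2-Aa, chr17:34287824-34287923, minus strand: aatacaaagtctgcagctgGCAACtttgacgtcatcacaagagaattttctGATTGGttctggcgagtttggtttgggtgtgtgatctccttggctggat
H2-Eb1, chr17:34305767-34305866, plus strand: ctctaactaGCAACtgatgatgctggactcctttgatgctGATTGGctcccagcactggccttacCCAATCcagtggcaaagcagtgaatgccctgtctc
H2-Ob, chr17:34238805-34238904, plus strand: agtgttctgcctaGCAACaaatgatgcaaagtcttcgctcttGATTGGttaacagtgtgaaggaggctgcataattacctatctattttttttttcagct
H2-Oa, chr17:34092279-34092378, plus strand: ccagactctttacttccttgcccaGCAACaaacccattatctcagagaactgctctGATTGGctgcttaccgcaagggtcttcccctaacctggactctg
In these windows 27, 26, 24 and 27 bases lay between both cores, in the order in which the genes are given. The X box core was found on either strand in 13.8% of the 32851 RefSeq promoters with a window of this length, and the Y box core in 8.62%. GCAAC followed by GATTGG on the same strand after 15 to 35 bases was found in 63 promoters, 0.192%. Of the 16 genes of the class II list, 12 had a promoter in the table and these 4 held the pair. Both cores were chosen after the letters had been read, and a match is a description of the letters.

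H2-Ab1, the beta chain of I-A, lay at log2 13.93 and 13.94 in MHCII+ replicates 1 and 5 and at 12.45, 12.35 and 12.32 in MHCII- replicates 1, 2 and 3. Its groups did not overlap, and the titles held for all 5 arrays. H2-Eb1, the beta chain of I-E, lay at 13.75 and 13.71 against 11.54, 11.68 and 10.58, a log2 difference of 2.46 ± 0.22 (SE; limma adjusted p = 1.64e-09). H2-Aa, the alpha chain of I-A, lay at 13.89 and 13.88 against 12.83, 12.75 and 11.82. MHCII- replicate 3 was the lowest of the 5 arrays for these 3 chains. Ciita was higher by 1.85 ± 0.19 (adjusted p = 2.16e-08), Cd74 by 0.88 ± 0.11 (3.98e-06), H2-DMa by 1.21 ± 0.17 (2.80e-05), H2-Ob by 1.36 ± 0.14 (1.89e-08) and H2-Eb2 by 1.52 ± 0.26 (4.46e-04). H2-Oa was higher by 0.60 (0.011). In all, 9 of the 14 tested members of the class II list rose, 0 fell and the median was 1.05, against 0.00 over all genes tested. The 5 that did not pass were Rfx5, Rfxap and Rfxank, which encode the X box factor and were at 0.37, -0.17 and 0.11, and Ctss and Ifi30, which encode lysosomal enzymes of the pathway and were at -0.02 each. H2-Eb2 lost its call without MHCII+ replicate 1 (1.27, adjusted p = 0.066), and H2-Oa lost it without MHCII+ replicate 1 (0.40, 0.37) or MHCII- replicate 1 (0.51, 0.087). In the MHCII- group H2-Ab1, H2-Aa, H2-Eb1 and Cd74 all lay at 10.58 or above in each array, where the median of all values of the series was 7.57.

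Over all genes, 152 of the 11074 tested passed in limma (1.37%), 126 higher in MHCII+ (1.14%) and 26 lower (0.235%). Of these, 73 differed at least 2-fold, 58 higher and 15 lower, and 971 genes had an unadjusted p under 0.05. Values did not overlap between the 2 groups for any of the 152; without a test, 10.0% of all genes lay fully higher and 6.55% fully lower. The 5 arrays were not alike within their groups. MHCII- replicate 3 correlated with MHCII- replicates 1 and 2 at 0.933 and 0.946, while those 2 correlated at 0.994. MHCII+ replicate 1 correlated better with MHCII- replicates 1 and 2 (0.979 and 0.980) than with MHCII+ replicate 5 (0.976). The residual SD was 0.28 in these 5 arrays against 0.19 over all 45, from which the test takes its spread, so that the p-values here tend to be too small. A fit on the 5 arrays alone passed 16 genes, 15 of them among the 152. The count was 71 without MHCII+ replicate 1 and 252 without MHCII- replicate 3, of which 160 were higher. Without any 1 of the 5 arrays, 47 of the 152 genes passed each time (40 higher, 7 lower), and all 152 kept their direction. Since the values of these genes did not overlap, leaving out an array could not turn that direction. The intensity filter asks for a level at or above the median in at least 1 of the 18 groups of the series, and 50 of the 126 genes met it through MHCII+ groups alone and 6 of the 26 through MHCII- groups alone. The genes described first below are among those 47 unless the text says otherwise.

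Receptors that were first described on natural killer (NK) cells were among the genes with the widest differences. Klrb1b, an inhibitory lectin-like receptor, lay at 10.55 and 10.32 in MHCII+ replicates 1 and 5 and at 6.47, 6.50 and 6.21 in the MHCII- replicates. The groups stood 4.04 ± 0.20 apart (16.5-fold, adjusted p = 2.64e-16), and the MHCII+ arrays lay close together. Cd226, an adhesion receptor that binds nectin-like ligands, lay at 10.25 and 9.03 against 6.55, 6.54 and 6.06 (3.26 ± 0.33, 2.03e-08). Klri1, a lectin-like receptor that pairs with other chains, lay at 9.16 and 8.56 against 6.03, 5.95 and 5.78 (2.94 ± 0.22, 3.64e-11). MHCII+ replicate 1 was the higher of both arrays for these 3 genes. Klrk1, which encodes the activating receptor NKG2D, was higher by 1.89 ± 0.26 (1.84e-05). Klrd1, the CD94 chain, was higher by 1.13 ± 0.28 (0.029), a call that ended without MHCII+ replicate 1 (0.69, 0.49), MHCII- replicate 1 (1.19, 0.053) or MHCII- replicate 2 (1.07, 0.11). Klrb1a and Klra17, other receptors of these families, which are named after their values were seen, were higher by 1.96 ± 0.27 (1.84e-05) and 1.47 ± 0.35 (0.015). Klra17 kept its call only without MHCII- replicate 3 (0.011; 0.057 to 0.19 without each of the others). Genes of the Klrb1 and Klra families have near-identical copies, and their probe sets may read more than 1 of them.

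Of the 18 NK cell genes listed, 15 were on the array and 5 passed the intensity filter. Klrb1b, Cd226, Klrk1 and Klrd1 passed the test. Among the 5, 4 met the filter through MHCII+ groups alone, which favours genes that are higher in MHCII+ cells, and nothing is read from their count. The other 10 lay below the median intensity in all 5 arrays, with differences of -0.14 to 0.35. Over all 15 genes, 10 were above 0 and the median was 0.09. Ncr1, the activating receptor that marks NK cells, lay at 5.41 and 5.43 against 5.11, 5.49 and 6.03, so that both MHCII+ arrays lay within the MHCII- range. Eomes, an NK cell transcription factor, lay at 5.64 and 5.70 against 5.62, 5.89 and 5.91. Gzmb, a cytotoxic protease, lay at 5.90 and 5.82 against 5.68, 5.86 and 6.25, and Prf1, which encodes perforin, at 7.36 and 7.31 against 7.09, 7.27 and 7.64. The mean level over the 15 genes ran from 6.72 to 6.96 in MHCII+ and from 5.95 to 6.25 in MHCII- arrays, and the part of NK cells in the results was not tested. In sorted bulk RNA, fewer cells of a type and less RNA per cell cannot be told apart.

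Among secreted factors, the neighbouring genes Ccl17 and Ccl22 rose, which encode the 2 ligands of CCR4, a receptor of regulatory and type 2 helper T cells. Ccl17 lay at 11.46 and 10.40 against 6.96, 7.06 and 7.81, a difference of 3.65 ± 0.27 (12.6-fold, adjusted p = 3.41e-11). Both MHCII+ arrays were far above the 3 MHCII- arrays, with MHCII+ replicate 1 the higher, and the difference was 3.12 to 4.19 without any 1 array. Ccl22 lay at 9.0 and 8.44 against 6.02, 6.35 and 6.57 (2.41 ± 0.20, 7.41e-10). Of the 26 chemokine genes tested, 5 met the intensity filter through MHCII+ groups alone, Ccl17 and Ccl22 among them. In all, 3 rose, 0 fell and the median was -0.01, and nothing is read from this count. The third was Ccl5, an attractant of T cells and monocytes, at 1.15 ± 0.27 (0.017), whose call ended without MHCII+ replicate 1 (0.99, 0.28), MHCII+ replicate 5 (1.32, 0.051) or MHCII- replicate 3 (1.02, 0.063). Cxcl9, an attractant of T cells that carry CXCR3, was 2.37-fold higher in the mean (adjusted p = 0.14) and did not pass, although its groups did not overlap. Cxcl10, a ligand of the same receptor, lay at 13.04 and 13.46 against 12.60, 12.62 and 13.60 and overlapped.

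Several enzymes and surface proteins of other kinds were among the 12 genes with the largest rise. H2-M2, a class I-like gene of the MHC, lay at 9.43 and 9.97 against 7.07, 7.10 and 7.64 (2.43 ± 0.22, adjusted p = 1.64e-09). Dcstamp, a membrane protein that osteoclasts and giant cells need to fuse, lay at 9.65 and 9.69 against 7.18, 7.29 and 7.47 (2.36 ± 0.27, 4.06e-07). The MHCII+ arrays differed by little for Dcstamp and both stood clear of the MHCII- arrays. Aldh1a2, which makes retinoic acid from retinaldehyde, lay at 9.26 and 8.02 against 6.82, 6.31 and 6.50 (2.10 ± 0.30, 2.84e-05). Ndnf, a secreted factor first described in neurons, lay at 8.75 and 7.82 against 6.24, 6.22 and 6.24 (2.05 ± 0.23, 1.46e-07). Clec9a, a receptor for the actin of dead cells, lay at 8.55 and 8.20 against 6.25, 6.12 and 6.41 (2.11 ± 0.20, 9.19e-09). Akr1c18, a hydroxysteroid dehydrogenase that inactivates progesterone, lay at 9.36 and 7.04 against 5.97, 5.66 and 5.95. Its MHCII+ arrays were far apart, and the difference of 2.34 ± 0.41 (5.11e-04) was 1.18 without MHCII+ replicate 1 (0.25) and 3.50 without MHCII+ replicate 5.

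**Figure D1:**
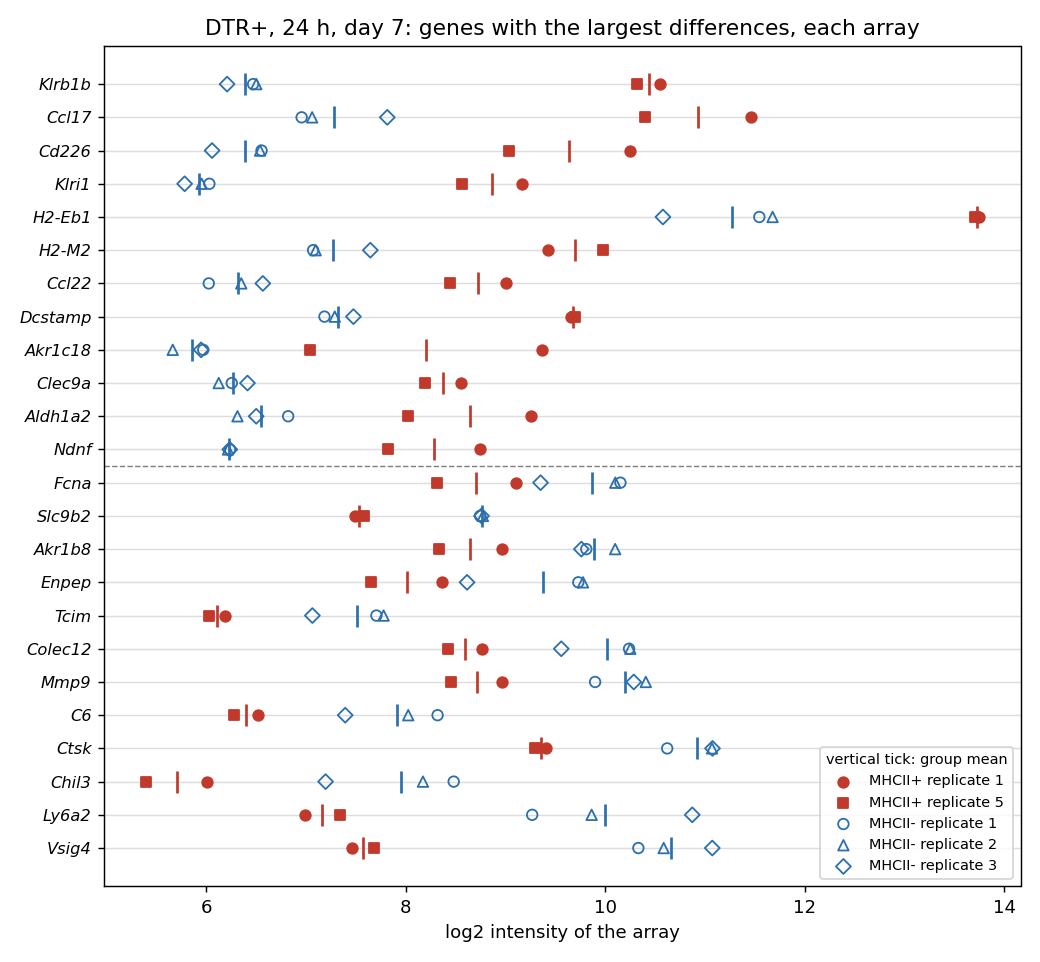
Log2 intensity (x axis) of the 12 genes that rose most and the 12 that fell most, with filled red points for MHCII+ replicates 1 and 5, open blue points for MHCII- replicates 1, 2 and 3, and a vertical tick for each group mean. For each of the 24 genes the red points lie on 1 side of all blue points, and the red points of Akr1c18 (9.36 and 7.04) lie far apart.

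Of the 22 C-type lectin genes tested, 3 rose and 0 fell (median 0.13): Clec9a, Cd209a and Clec4b1. Clec9a and Clec4b1 met the intensity filter through MHCII+ groups alone, so nothing is read from this count. Cd209a, the mouse gene most like human DC-SIGN, lay at 11.96 and 11.75 against 9.50, 9.62 and 10.35 (2.03 ± 0.31, adjusted p = 7.25e-05). Clec4b1, a lectin of the Dcar group, lay at 8.67 and 7.57 against 6.47, 6.11 and 5.68 (2.03 ± 0.41, 0.0035), and its difference was 1.48 (0.25) without MHCII+ replicate 1. Cd209d and Cd209g, lectins of resident macrophages, lay at -1.01 (0.23) and -0.78 (0.23).

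Costimulatory and inflammatory genes moved in few members. Tnfsf9, the ligand of the T cell receptor 4-1BB, was higher by 0.89 ± 0.21 (adjusted p = 0.016) and Slamf8, a receptor of activated myeloid cells, by 1.19 ± 0.30 (0.033), 2 of 16 costimulatory genes tested (0 fell, median 0.33). The call of Tnfsf9 ended without MHCII+ replicate 1 (0.87, 0.18), MHCII+ replicate 5 (0.91, 0.10) or MHCII- replicate 1 (0.84, 0.066), and that of Slamf8 without MHCII+ replicate 1 (0.98, 0.33), MHCII+ replicate 5 (1.39, 0.067) or MHCII- replicate 3 (0.84, 0.14). Among 23 cytokine genes and targets of NF-kB, 2 rose and 0 fell (median 0.14). Tnip3, an inhibitor of NF-kB signalling, lay at 11.82 and 11.75 against 10.03, 9.89 and 9.86 (1.86 ± 0.25, 1.2e-05). Il6, the cytokine interleukin 6, was higher by 1.87 ± 0.43 (0.012), and by 1.32 (0.34) without MHCII+ replicate 1. Of 24 genes induced by interferon gamma, 3 rose and 0 fell (median 0.18): Ciita, the GTPase gene Gbp2b (1.22 ± 0.23, 0.0012) and Socs1, a feedback inhibitor of cytokine receptors (0.59 ± 0.12, 0.0029). Without MHCII+ replicate 1, Gbp2b was down to 0.77 (0.24) and Socs1 to 0.36 (0.32). Iigp1 (-0.05) and Batf2 (0.29) of the same list did not pass, and Ifng itself lay below the intensity filter in every group.

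Some genes of resident macrophages and of the uptake of dead cells fell. Vsig4, a complement receptor of resident macrophages, lay at 7.46 and 7.68 in MHCII+ replicates 1 and 5 against 10.33, 10.59 and 11.07 in the MHCII- replicates, a difference of -3.09 ± 0.29 (8.52-fold, adjusted p = 3.80e-09). Both MHCII+ arrays lay near the median intensity of the arrays, and the 3 MHCII- arrays were well above them. Timd4, a receptor for the phosphatidylserine of dying cells, lay at 7.27 and 7.26 against 8.37, 8.11 and 8.43 (-1.04 ± 0.16, 5.45e-05). The complement gene C6 lay at 6.51 and 6.28 against 8.32, 8.02 and 7.39 (-1.51 ± 0.23, 7.62e-05). Colec12, a scavenger receptor with a collagen stalk, lay at 8.77 and 8.42 against 10.24, 10.25 and 9.56 (-1.42 ± 0.21, 5.04e-05). Fcna, the complement lectin ficolin A, was lower by 1.16 ± 0.25 (0.0064) and lost its call without MHCII+ replicate 5 (-0.76, 0.40), MHCII- replicate 1 (-1.02, 0.053) or MHCII- replicate 2 (-1.04, 0.052). The complement gene C2 was lower by 0.80 ± 0.17 (0.0068) and lost it without MHCII+ replicate 1 (-0.77, 0.13) or MHCII+ replicate 5 (-0.83, 0.056).

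Of the 20 resident macrophage genes tested, 3 fell (Vsig4, Timd4 and Fcna), 0 rose and 19 were below 0, with a median of -0.48. Of all 11074 genes tested, 0.235% passed as lower and 5537 were above 0. Of the 23 genes of efferocytosis and complement, 4 fell (Vsig4, Timd4, C6 and C2), 0 rose and the median was -0.05. C6 and C2 met the intensity filter through MHCII- groups alone, so nothing is read from this count. Lyve1, the hyaluronan receptor that marks a resident subset, lay at 11.60 and 10.54 against 12.50, 12.55 and 11.34 (-1.06, adjusted p = 0.23), and its groups overlapped through MHCII- replicate 3. Cd163, the haemoglobin scavenger receptor, was at -0.52 (0.71) and Mrc1, the mannose receptor, at -0.08 (0.99). Neither passed, and both overlapped in the same array.

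Of the genes that fell, Sh3bgrl2, Dnm1 and Cpne8, named after their values were seen, are also among the 47 and fell by 1.03, 1.00 and 0.83. The remaining genes of the 12 with the largest fall are not among the 47. Chil3, the chitinase-like protein Ym1, lay at 6.01 and 5.39 against 8.48, 8.17 and 7.20 (-2.25 ± 0.50, adjusted p = 0.0088), and its call ended without MHCII+ replicate 1 (0.051), MHCII+ replicate 5 (0.19) or MHCII- replicate 1 (0.066). Ctsk, the collagen-cutting cathepsin K, lay at 9.40 and 9.30 against 10.62, 11.07 and 11.08 (-1.57 ± 0.39, 0.027) and passed without 1 array only in the case of MHCII- replicate 1 (0.034; 0.059 to 0.19 without each of the others). Mmp9, a gelatinase, lay at 8.97 and 8.45 against 9.90, 10.41 and 10.29 (-1.49 ± 0.36, 0.020), and its call ended without MHCII+ replicate 1 (0.070), MHCII+ replicate 5 (0.34) or MHCII- replicate 2 (0.097). Ly6a2, a member of the Ly6 family of anchored surface proteins, lay at 6.99 and 7.34 against 9.27, 9.86 and 10.87 (-2.84 ± 0.57, 0.0029; 0.094 without MHCII+ replicate 1). Copies of the Ly6 genes are alike, so the probe set may read more than 1 of them. Tcim, a small regulator of transcription, was lower by 1.41 ± 0.28 (0.0031; 0.063 without MHCII+ replicate 5). Enpep, an aminopeptidase that cleaves angiotensin, Akr1b8, an aldo-keto reductase, and Slc9b2, a sodium-proton exchanger, were 2.58-, 2.36- and 2.34-fold lower (0.016, 0.0085 and 0.028). Enpep lost its call without MHCII+ replicate 5 (0.41), MHCII- replicate 1 (0.096) or MHCII- replicate 2 (0.12), and Akr1b8 without MHCII+ replicate 5 (0.33) or MHCII- replicate 2 (0.059). Slc9b2 kept its call only without MHCII- replicate 3 (0.047; 0.069 to 0.23 without each of the others).

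Most other lists held few or no called genes. None passed among 12 genes of class I presentation (median 0.09), 27 type I interferon-stimulated genes (0.00), 34 cell cycle genes (-0.24), 28 of oxidative phosphorylation (-0.20), 18 of glycolysis and hypoxia (-0.09), 14 of iron and haem handling (-0.29) and 24 macrophage transcription factors (0.16). The median over all genes tested was 0.00. Of 16 genes of alternative activation, Ccl17 and Ccl22 rose and Chil3 fell (median 0.01), while Arg1, which breaks down arginine, lay at 8.10 and 8.04 against 10.08, 10.31 and 8.49 (-1.56, adjusted p = 0.24). Of these 16 genes, 3 met the intensity filter through MHCII+ groups alone, with Ccl17 and Ccl22 among them. Of 15 genes of Ly6C-high monocytes 1 fell, Chil3 (median -0.28). Haptoglobin (Hp) lay at 7.53 and 7.38 against 8.65, 8.70 and 8.63 (-1.21, 0.13) and Plac8 at 9.68 and 9.67 against 10.50, 10.80 and 11.26 (-1.18, 0.13). Neither passed, although their groups did not overlap. Of 25 lysosome genes 1 fell (Ctsk, median -0.02), and of 25 growth factor and matrix genes 1 fell (Mmp9, median 0.10).

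**Figure D2:**
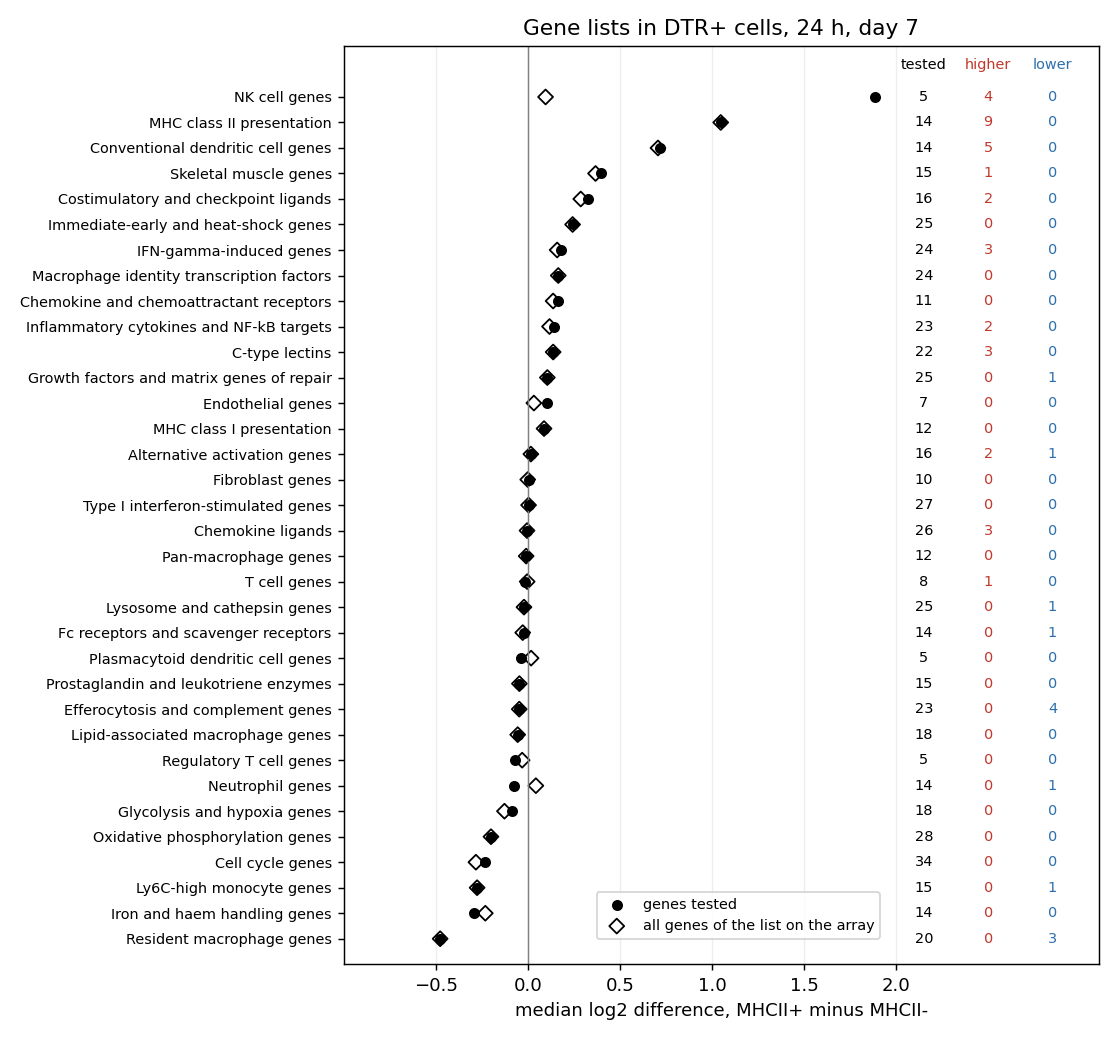
Median log2 difference, MHCII+ minus MHCII- (x axis), in each list with at least 5 tested members, over the genes tested (filled dots) and over all genes of the list on the array (open diamonds), with the number tested, called higher and called lower at the right and no test of a median. The dot of the NK cell list (1.89) rests on 5 genes that the intensity filter let through and its diamond lies at 0.09, while the class II list (1.05) and the resident macrophage list (-0.48) have dot and diamond together.

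The macrophage genes of the gate did not separate the subsets. None of the 12 pan-macrophage genes passed (median -0.01). Adgre1, which encodes F4/80, lay at 12.91 and 12.75 against 12.56 to 13.04 over the 3 MHCII- arrays, and Csf1r, the receptor that macrophages need to survive, at 13.02 and 12.98 against 12.44 to 13.16. Both subsets were high for these genes and overlapped. Genes of conventional dendritic cells were higher in part: 5 of the 14 tested rose and 0 fell. Since 4 of the 14 met the filter through MHCII+ groups alone, the list is given over all 16 genes on the array. Of these, 15 were above 0, against 5537 of all 11074 genes tested, and the median was 0.70. The 5 that rose were Ccl22, Clec9a, Cd209a, Dpp4, a peptidase that trims chemokines (1.45 ± 0.23, adjusted p = 1.12e-04), and Itgax, the CD11c integrin (0.81, 0.0035), named after its value was seen. Without MHCII+ replicate 1, Dpp4 was at 0.97 (0.083) and Itgax at 0.74 (0.13). The other genes of the list that were tested did not pass. Flt3, the growth factor receptor of dendritic cells, lay at 7.54 and 6.95 against 6.62, 6.50 and 6.74 (0.62, 0.070). Its groups did not overlap, and it passed in both other day 7 sets, as given below. Zbtb46, a transcription factor of these cells, lay at 7.31 and 7.33 against 7.33, 7.37 and 7.73 (-0.16, 0.90). Xcr1, a receptor of the cross-presenting kind, lay below the filter at 7.38 and 7.06 against 6.30, 6.12 and 6.88. Ccr7, which guides cells to lymph nodes, lay at 9.10 and 8.62 against 7.32, 7.52 and 8.01 (2.37-fold, 0.12). The mean level of the 16 dendritic cell genes on the array ran from 8.68 to 9.11 in MHCII+ and from 7.94 to 8.16 in MHCII- arrays, and the part of such cells in the results was not tested.

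Of other cell types, few markers moved. Cd2, an adhesion receptor of T cells and some myeloid cells, lay at 9.85 and 9.15 against 7.82, 7.66 and 7.46 (1.85 ± 0.23, adjusted p = 1.74e-06). It was the only 1 of 8 T cell genes tested to pass (median -0.02), while Cd3d and Cd3g, chains of the T cell receptor complex, lay between 5.34 and 6.18 in all 5 arrays, below the filter. The 16 T cell genes had a mean level of 7.18 to 7.27 in the MHCII+ arrays and of 6.95 to 7.25 in the others. Foxp3 lay at 7.07 and 7.13 against 6.97, 6.99 and 7.45, below the filter, so the removal of regulatory T cells cannot be read from these arrays. Of 5 regulatory T cell genes, 5 plasmacytoid dendritic cell genes, 2 B cell genes, 2 eosinophil and mast cell genes, 10 fibroblast genes, 7 endothelial genes and 3 of red cells and platelets tested, none passed, and of 14 neutrophil genes Mmp9 alone fell. Skeletal muscle genes were above 0 in 18 of the 19 on the array (median 0.37), of which 15 were tested. Of all 11074 genes tested, 5537 were above 0. Des, the muscle filament desmin, passed at 1.05 ± 0.28 (0.047) but not without any 1 of the 5 arrays (0.055 to 0.31). The 19 muscle genes had a mean level of 8.31 to 8.47 in the MHCII+ arrays and of 7.87 to 8.08 in the others. The mean level of muscle genes was thus higher in the arrays in which the genes above rose, and its part in those results was not tested.

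The subset difference was then read in arrays of other mice. In DTR- mice at 24 h, 579 genes passed (5.23%; 226 higher, 2.04%; 353 lower, 3.19%), and in DTR+ mice at 8 h 884 did (7.98%; 331 higher, 2.99%; 553 lower, 4.99%). The excess of lower genes in DTR- mice did not hold in each setting: it was 279 higher and 283 lower with quantile normalization and 111 each on the 7 arrays alone, and higher genes were the more numerous without MHCII+ replicate 3 (143 and 125), MHCII- replicate 1 (136 and 123) or MHCII- replicate 2 (136 and 121). At 8 h it turned to 69 higher and 40 lower on the 6 arrays alone and was 178 and 176 without MHCII+ replicate 1. Of the 126 genes higher here, 125 were higher in DTR- mice and 95 passed there (75.4% of the 126, 42.0% of the 226). At 8 h, 124 were higher and 91 passed (72.2% of the 126, 27.5% of the 331). Of the 26 genes lower here, all 26 were lower in both other sets. In DTR- mice 22 passed (84.6% of the 26, 6.23% of the 353) and at 8 h 21 did (80.8% of the 26, 3.80% of the 553). Of all genes tested, 35.3% were higher and 64.7% lower in DTR- mice, and 42.9% and 57.1% at 8 h. The intensity filter read the groups of all sets. Through MHCII+ groups alone 50 of the 126 met it, and through MHCII- groups alone 6 of the 26, which favours the same direction in each set. Altogether 100 of the 152 passed in all 3 sets, 80 higher and 20 lower. The 126 had a median of 0.91 here, 0.77 in DTR- mice and 0.71 at 8 h, and the 26 a median of -1.04, -0.98 and -0.99. The genes were chosen for their size in the first of these, which favours the larger value there.

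Klrb1b stood at 4.04 ± 0.20 here, 3.97 ± 0.16 in DTR- mice and 4.27 ± 0.18 at 8 h, and H2-M2 at 2.43 ± 0.22, 2.21 ± 0.18 and 2.49 ± 0.19. Vsig4 stood at -3.09 ± 0.29, -2.97 ± 0.24 and -2.70 ± 0.26. In DTR- mice Vsig4 lay at 7.07, 7.64, 7.27 and 6.97 in the MHCII+ arrays and at 10.45, 10.46 and 9.71 in the MHCII- arrays. In DTR+ mice at 8 h it lay at 8.78, 8.40 and 8.36 against 11.38, 11.25 and 11.01. In each of the 3 sets its groups stood clear of each other. Some genes that missed the threshold here passed in both other sets. Cxcl9 passed at 1.78 in DTR- mice and 2.09 at 8 h, Lyve1 at -1.49 and -1.88, Ccr7 at 2.02 and 2.09, Flt3 at 0.93 and 0.57, and Ccr2, the receptor that brings monocytes from the blood, at 1.05 and 1.06, against 0.79 (adjusted p = 0.40) here. Resident macrophage genes fell in 10 of 20 in DTR- mice (median -0.69) and in 17 of 20 at 8 h (median -0.99). Of 34 cell cycle genes 7 fell in DTR- mice, against 0 here and 1 at 8 h. Of 8 T cell genes tested 5 rose at 8 h (median 0.81), against 1 in DTR- mice and 1 here (median -0.02). Through MHCII+ groups alone 2 of the 8 met the intensity filter, and the part of T cells in the 8 h results was not tested. A call in 1 set and not in another does not show that the sets differ; that was tested directly.

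**Figure D3:**
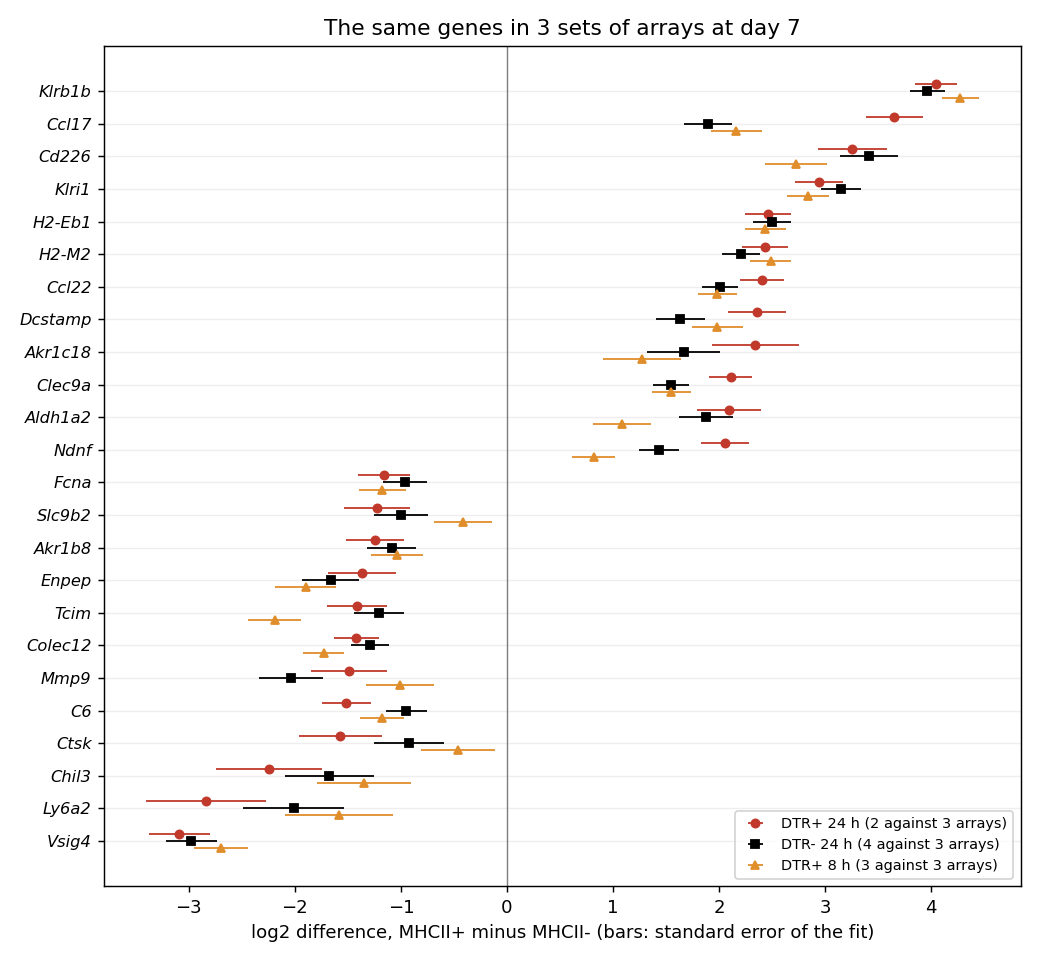
Log2 difference, MHCII+ minus MHCII- (x axis), of the same 24 genes in DTR+ mice at 24 h (red), DTR- mice at 24 h (black) and DTR+ mice at 8 h (orange), with bars of 1 standard error of the fit. Each black and each orange point lies on the same side of 0 as the red point of its gene, and Ccl17 stands apart at 3.65 against 1.90 and 2.16.

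No gene passed the test of a change in the subset difference with genotype (0.0% of 11074; limma, 1012 with an unadjusted p under 0.05), and none that of a change between the 24 h and 8 h sets of DTR+ mice (0.0%; 1244 unadjusted). Ccl17 had the smallest adjusted p in the first test, 0.22. Its difference was 1.76 ± 0.35 larger in DTR+ than in DTR- mice, where it lay at 9.49, 9.55, 9.51 and 9.20 in MHCII+ and at 7.54, 8.01 and 7.08 in MHCII- arrays. Both DTR+ MHCII+ arrays (11.46 and 10.40) were above all 4 DTR- MHCII+ arrays, and the MHCII- arrays of both genotypes overlapped. Ccl17 passed this test without DTR+ MHCII+ replicate 5 (2.29, adjusted p = 0.0082), without DTR+ MHCII- replicate 3 (2.03, 0.019) and without DTR- MHCII- replicate 3 (1.99, 0.043). Against the 8 h set, whose mice also differed in age and gate, the difference of Ccl17 was 1.49 ± 0.36 larger and that of Ndnf 1.23 ± 0.30 larger (adjusted p = 0.40 each). Without DTR+ MHCII+ replicate 5 both passed, at 2.02 and 1.70 (0.046 each). Of the 152 genes, 24 had an unadjusted p under 0.05 in the first test and 34 in the second, against 1012 and 1244 of all 11074. The 152 were chosen for a difference that is part of both tests. That choice favours a small p in them, so nothing is read from these counts.

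Among the 152 genes, 23 passed in this set and in neither of the others. Of those that belong to a list above they include Ctsk, at -1.57 here against -0.92 (adjusted p = 0.094) in DTR- mice and -0.47 (0.41) at 8 h, and Socs1, at 0.59 against 0.06 and 0.30. Since no gene passed either test of a change, none of the 23 is shown to be particular to depleted mice at 24 h.

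The subset difference was also set beside that at other days, of which no call is made. The genes higher here were mostly higher throughout. The 126 had a median of 1.74 at day 0 (124 above 0), 0.68 at day 1 (113) and 0.79 at day 4 (125), all in DTR- mice. The 26 genes lower here had a median of -1.38 at day 0 (26 below 0), -0.02 at day 1 (14) and -0.97 at day 4 (26). At day 1 of DTR+ mice it was -0.05 (14 below 0). The same counts were not taken over all genes. The intensity filter read these groups too and favours the same direction for genes that met it through MHCII+ or MHCII- groups alone. Vsig4 stood at -4.34 at day 0, -0.26 at day 1 and -3.52 at day 4. Its mean in the MHCII- group was 11.58, 5.86 and 9.24 at these days and 10.66 in the DTR+ mice of day 7, so that at day 1 the gene was low in both subsets. H2-M2 also had its smallest difference at day 1, but its largest at day 7. It stood at 1.15, 0.16 and 0.49 at days 0, 1 and 4, with MHCII+ means of 7.84, 6.69 and 7.41, against 9.70 in the DTR+ mice of day 7. Clec9a stood at 1.56, 0.14 and 1.46. Klrb1b kept a difference of 3.55 or more at each day and in each set. Day 0 also differs from the others in age and injury, and days 1 and 4 in the gate. Days 0 and 4 come from DTR- mice without a DT label. The day 1 values of Vsig4, H2-M2 and Clec9a are those of DTR- mice. None of these differences can be told apart from time.

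**Figure D4:**
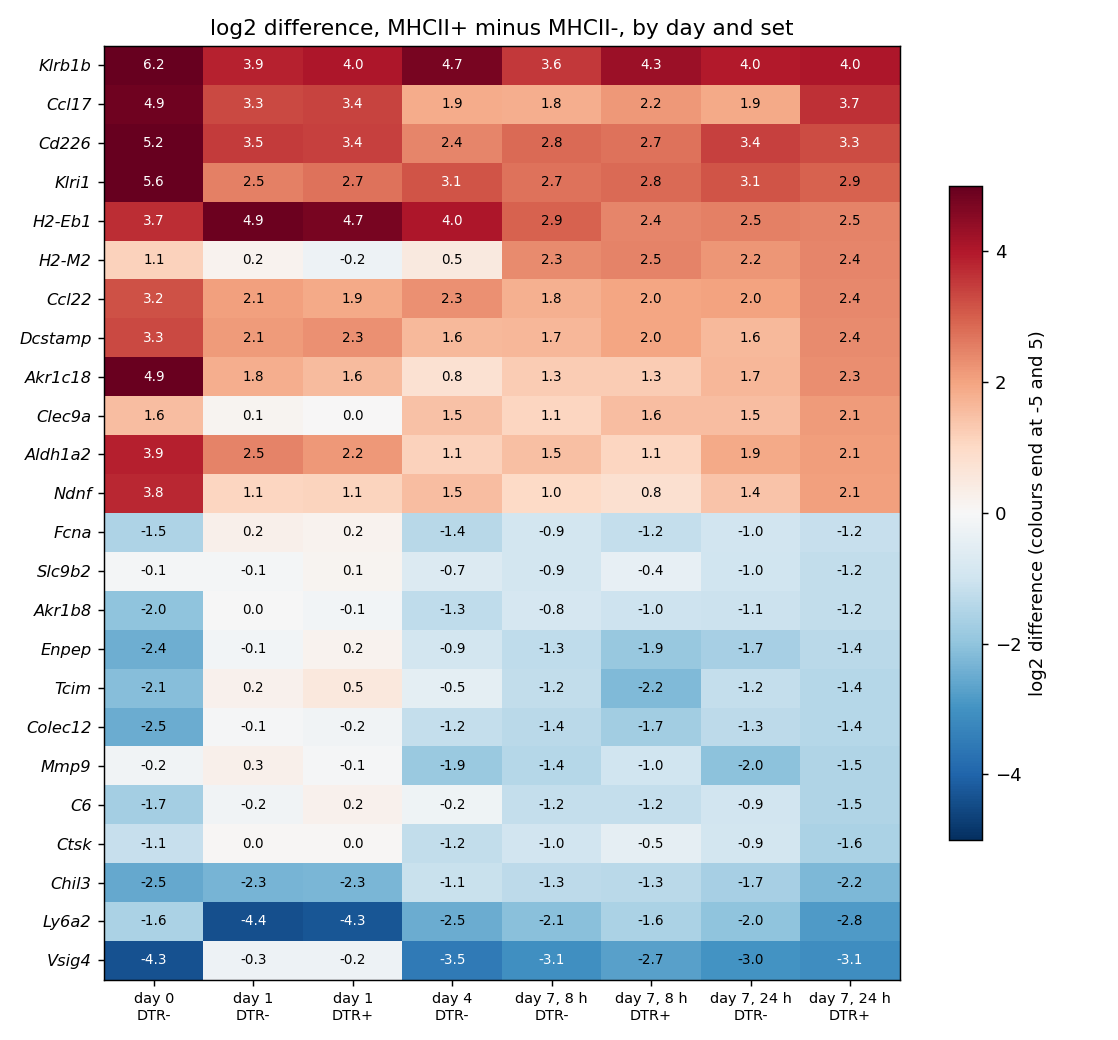
Log2 difference, MHCII+ minus MHCII- (colour and printed value), of the 24 genes (rows) at day 0, day 1 and day 4 and in the 4 day 7 sets with a DT time in their labels (columns), red for higher in MHCII+ and blue for lower. Most genes in the lower rows are near 0 at day 1 (Vsig4 -0.26), while Chil3 and Ly6a2 are at -2.34 and -4.41, and H2-M2 is above 2 in the day 7 columns alone.

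Some of the genes that rose lie next to each other in the genome. By RefSeq (GRCm38.p6), 22 of the 126 lie on chromosome 6, 4.01% of the 549 genes tested there, and 14 on chromosome 17, 2.52% of 556, against 1.14% of all genes. On chromosome 6, the stretch from Klrb1a to Klra2, which holds the NK gene complex, had 18 tested genes of which 7 rose: Klrb1a, Klrb1b, Clec9a, Klrd1, Klrk1, Klri1 and Klra17. Their neighbours Clec12a (0.02), Clec7a (0.13), Clec2d (0.09), which encodes the ligand of Klrb1b, and Cd69 (0.67, adjusted p = 0.55) did not pass. On chromosome 17, the class II stretch from H2-DMa to H2-Eb2 had 10 tested genes, of which the 6 class II genes rose. The class I processing genes among them, Psmb8 (0.02), Psmb9 (0.10), Tap1 (0.51, 0.56) and Tap2 (-0.13), did not pass. On chromosome 8, Cx3cl1 lies between Ccl22 and Ccl17 and was at 0.30 (0.47). Neighbouring genes of 1 family can share probe sequence, so their values are not independent. The stretches were chosen after the values had been seen, and no test of position was made. Of the 7 genes on chromosome 6, Klrb1b, Clec9a, Klrd1, Klrk1 and Klri1 met the intensity filter through MHCII+ groups alone. Nothing is therefore read from that count or from the share on chromosome 6.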

How the data were processed

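RNA of sorted cells was hybridised to Affymetrix Mouse Gene 1.0 ST arrays, 1 colour and 1 sample each. Per the submitters' processing notes, the authors used Affymetrix Power Tools and RMA (background correction, quantile normalization and probe set summary); no version of either is named there. The deposited values are linear intensities (9.43 to 24649; array medians 174.72 to 203.68), and log2 was taken of these deposited values here. RMA makes the arrays' distributions alike, so a shift shared by most genes would not be seen, and differences of dim genes are compressed.

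Of 24922 probe sets, 21425 carried 1 symbol, 1399 several and 2098 none in the platform table; the brightest probe set stood for each of 19752 genes. The 11074 genes tested had at least 1 of 18 group means at or above the median of all values (log2 7.57, intensity 189.51). limma 3.58.1 (R 4.3.3) fitted 18 group means over 45 arrays (27 residual degrees of freedom) with an intensity trend, and Benjamini-Hochberg adjusted p under 0.05 passed; errors are standard errors of that fit. No 2 arrays were identical. The number of arrays, 2 against 3, limits the precision. Levels of different genes are not comparable.

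The named genes are, per direction, the 12 of largest difference among those passed, not overlapping and with a settled name, up to 4 per list with the smallest p, the top changes of the subset difference, and a fixed set; others are said to be named after their values were seen. The genes and lists were chosen with earlier results of these data known. The script was tested on simulated data. Figures were drawn with matplotlib 3.10.9.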

Additional observations from a re-analysis of the deposited data

Results flagged for a closer look

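In the only compared group of 4 arrays, the DTR- MHCII+ arrays at 24 h, 151 named genes were checked for a sample far from the other 3, and 13 had one; chance alone flags about 1 in 20 such groups. DTR- MHCII+ replicate 4 was the lowest for Ccl17 (log2 9.20), Cd226 (8.36), Dpp4 (7.42) and Cd2 (8.76) and the highest for the endothelial gene Pecam1 (7.68). Replicate 3 was the lowest for Msr1 (11.73), Plk1 (8.11) and Irf7 (11.13) and the highest for the neutrophil gene Mpo (9.09, the other 3 at 6.94 to 7.10). Replicate 2 was the highest for Clec9a (8.12) and Cenpe (7.65), and replicate 1 for Cd9 (11.33) and Plac8 (10.07).

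Probe sets with several or no gene symbols were outside the main measurement. Of 1860 tested in DTR+ mice at 24 h, 15 passed in limma, 14 of them higher in MHCII+. The probe set shared by H2-DMb2 and H2-DMb1 was higher by 1.66 (adjusted p = 2.10e-08) and that shared by Naa80 and Hyal1 lower by 0.71 (0.0073); the other 13 are unnamed here.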

How the results depend on the processing

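The count of 152 was 138 to 180 with no or a stricter intensity filter, the mean over probe sets, quantile normalization, centred arrays, 32 added before log2 or no intensity trend; it was 563 with array quality weights (52.4% higher, against 82.9%), 16 on the 5 arrays alone, 71 on the 12 arrays of the set, and 71 to 252 without any 1 array. A lone array left in a group is assumed to vary like the other groups. All of the 152 that were fitted kept their direction in each of these. Where arrays were only left out, the lack of overlap had fixed that direction in advance. In 2 comparisons chosen after seeing the data, MHCII+ replicate 1 against MHCII- replicates 1 and 2 gave 135 (98 of the 152 among them) and MHCII+ replicate 5 against MHCII- replicate 3 gave 242 (46 of the 152). The groups share only replicate number 1, so no fixed pairing was possible. With the number as a random replicate block the counts were 288 here, 2190 in DTR- mice and 1 for the change with genotype (Ccl17). Deviations of the pair numbered 1 correlated at 0.534, and those of MHCII+ replicate 1 and MHCII- replicate 2 at 0.547; same-numbered pairs gave 0.359, 0.154 and -0.019 in DTR- mice, 0.270 in DTR+ mice at 8 h (1 pair), and 0.527, 0.480 and 0.583 in DTR- mice at 8 h, in which no test was made. Not every pair of the tested sets was above 0.1, so no fit with the number as a block is used, and whether a number marks a shared animal or day is not known.

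The count of 579 in DTR- mice was 222 on its 7 arrays alone and 257 to 1352 without any 1 array, and that of 884 at 8 h was 109 and 354 to 1507. The count of 0 for the change with genotype was 5 with array quality weights (Ccl17 and 4 others, 3 of them Snora genes) and 0 to 1 without any 1 array; that for the change with DT time was 0 to 2. Among single genes 132 alternatives lost a call, 96 gained one and none turned the sign of a call; of list medians, 55 values moved by more than the spread of the arrays. The cause of these shifts was not tested.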

Other observations

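Genes of signalling that no list held were also among the 47 that passed without any 1 array. They were picked after their values were seen, and their p-values are those of the limma fit. F2rl2, a receptor of the family that thrombin cleaves, lay at log2 9.02 and 9.04 in MHCII+ replicates 1 and 5 against 6.98, 7.00 and 7.05 in the MHCII- replicates (2.02 ± 0.21, adjusted p = 5.28e-08). F3, the tissue factor that starts clotting, lay at 8.26 and 7.81 against 6.83, 6.90 and 6.94 (1.14 ± 0.17, 2.84e-05). Grap2, an adaptor of T cell receptor signalling, lay at 8.95 and 7.91 against 6.82, 6.97 and 6.71 (1.59 ± 0.20, 2.26e-06), and Rasgrp1, an activator of Ras, at 10.86 and 10.79 against 9.61, 9.59 and 9.44 (1.28 ± 0.13, 2.03e-08). The groups of these 4 genes did not overlap. Rasgrp1 was higher by 0.98 ± 0.11 in DTR- mice at 24 h and by 1.36 ± 0.12 in DTR+ mice at 8 h.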
